A study of Rattus norvegicus with 6 samples.

Results

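The 10 glutathione transferase genes examined here were Gstp1 of the pi class, Gstm1 and Gstm2 of the mu class, Gsta2, Gsta3 and Gsta4 of the alpha class, Gstt1 of the theta class, Gstk1 of the kappa class, Gsto1 of the omega class and the membrane-bound Mgst1. They were chosen by symbol: every non-control probe whose RefSeq accession maps to one of these rat symbols was taken, which gave 16 of the 61526 probes used and 10 of 15277 named genes. Their level was measured in the renal cortex, the layer of the kidney that filters blood and reabsorbs most of the filtrate, of 6 male Sprague-Dawley rats (Crl:CD(SD)) bought at 5 weeks of age. The 3 treated rats received o-anthranilic acid, an aromatic amino acid also formed from tryptophan, at 1000 mg/kg/day for 4 weeks, and the 3 vehicle rats received corn oil for the same time. One array was hybridised per animal with Cy3-labelled RNA. All animals were on a basal diet, and the labels call the samples of a group biological replicates.

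Glutathione transferases join the tripeptide glutathione to reactive, electrophilic compounds, and the conjugates leave the cell through export pumps or are trimmed to mercapturic acids, a route for which the proximal tubule is known. The soluble classes act as dimers, while the microsomal forms belong to an unrelated membrane family. Nrf2, which switches on antioxidant defence genes by binding antioxidant response elements, is known to act on several of their genes. In the rat, Gstp1 is best known as the placental form, which is scarce in normal adult liver and abundant in its preneoplastic foci. Alpha class subunits are known as abundant proteins of the proximal tubule.

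The stretch of 250 bases before the annotated start of transcription is shown for the 3 genes whose treated and vehicle values did not overlap, and for the Gsta3 start that carries a motif. The sequences are RefSeq's on build GRCr8, read 5′ to 3′ on the gene's strand. Capitals mark the core of the antioxidant response element, TGACNNNGC, or the AP-1 site, TGACTCA.
Gstp1, chr1:210769706-210769955, minus strand: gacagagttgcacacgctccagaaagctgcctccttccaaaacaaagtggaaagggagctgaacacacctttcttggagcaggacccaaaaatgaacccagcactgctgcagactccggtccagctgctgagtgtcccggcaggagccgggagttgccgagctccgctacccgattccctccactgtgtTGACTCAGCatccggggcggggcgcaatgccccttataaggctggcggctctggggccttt
Gstm1, chr2:198343384-198343633, minus strand: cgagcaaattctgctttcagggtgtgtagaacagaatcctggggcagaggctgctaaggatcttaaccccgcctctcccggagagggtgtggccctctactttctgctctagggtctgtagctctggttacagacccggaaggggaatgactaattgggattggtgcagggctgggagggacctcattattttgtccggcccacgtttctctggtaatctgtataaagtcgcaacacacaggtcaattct
Mgst1, chr4:172760680-172760929, plus strand: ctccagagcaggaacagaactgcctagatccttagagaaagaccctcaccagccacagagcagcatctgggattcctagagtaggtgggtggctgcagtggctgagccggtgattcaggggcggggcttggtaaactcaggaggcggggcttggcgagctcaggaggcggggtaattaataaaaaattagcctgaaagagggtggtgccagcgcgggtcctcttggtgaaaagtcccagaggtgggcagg
Gsta3 (the first of 2 listed starts), chr9:31154739-31154988, plus strand: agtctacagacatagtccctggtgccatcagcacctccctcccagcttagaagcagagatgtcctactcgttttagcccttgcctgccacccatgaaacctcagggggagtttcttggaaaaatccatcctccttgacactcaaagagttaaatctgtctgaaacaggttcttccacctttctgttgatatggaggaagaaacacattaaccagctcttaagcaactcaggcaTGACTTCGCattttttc

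Of the 10 genes, 9 had such a window, and Gsta3 had 2. Both strands were searched for TGACNNNGC (reverse complement GCNNNGTCA) and for TGACTCA (reverse complement TGAGTCA). Gstp1 held TGACTCAGC on its own strand from position -61 to -53, counted from the base before the start as -1, in which the AP-1 letters overlap the antioxidant core. The first Gsta3 start held TGACTTCGC from -17 to -9. No match to these letters stood in the windows of Gstm1, Gstm2, Gsta2, Gsta4, Gstk1, Gsto1, Mgst1 or the second Gsta3 start. Among 33469 windows of that length in the RefSeq table, 10.1% held TGACNNNGC and 4.05% held TGACTCA on either strand. A match is a description of the letters only.

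Levels are given as normalised log2 signal, the log2 of a probe's background-subtracted brightness minus the array's own 75th percentile, so that 0 is the level of that percentile and a difference of 1 is a doubling. This scale compares animals for the same probe and does not rank different genes by abundance. Between 63.7% and 68.3% of probes on treated arrays and between 66.0% and 69.3% on vehicle arrays stood well above background. No spot was saturated, and all 16 probes of the 10 genes were well above background on all 6 arrays. The 7 early proximal tubule markers (among them Slc34a1, Lrp2 and Cubn) were all measured, with a median log2 fold change of -0.04. Treated replicate 2 was alone on its slide, and the other 5 arrays shared a slide.

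The comparison was made with limma over 30709 features, with Benjamini-Hochberg adjustment over all of them and a threshold of 0.05. No glutathione transferase passed: 0 of 10 were called, against a background of 0% of features, and the smallest adjusted p among the 10 was 0.391. At an unadjusted limma p under 0.05 there were 4 genes, all higher in treated animals (Gstp1, Gstm1, Gstm2 and Mgst1), where 3.52% of all features were higher at that level, 4.8% lower and 8.32% (2555 features) either. By single probe, 7 of the 16 were higher at that level, against 3.42% of the 41551 kept probes. All treated values lay outside the vehicle range for 3 of the 10 (Gstp1, Gstm1 and Mgst1), all with higher treated values, where 6.51% of all features stood apart in that direction, 8.13% in the other and 14.6% in either. Of the 16 probes, 6 stood apart, all higher in treated animals, against 6.3% of kept probes. All the Gstp1 probes were among these 6 and among the 7 above, and probes of the same gene are not independent. The log2 fold change was above 0 for 6 of the 10, against 48.6% of features. The median over the 10 was 0.20, and over all features it was -0.01. A test of 3 animals against 3 on a single gene can give no exact permutation p below 0.1, so the p-values here rest on limma's pooling of spread across features.

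Gstp1 (NM_012577) had the smallest p among the 10 genes. Its brightest probe read 6.54, 7.32 and 6.63 in the treated replicates 1, 2 and 3, against 5.64, 5.52 and 5.16 in the vehicle replicates. All treated animals lay above all vehicle animals, and treated replicate 2 was the highest of the 6. The means were 6.83 ± 0.42 in treated and 5.44 ± 0.25 in vehicle animals (SD, n = 3 each), a 2.62-fold higher treated mean. The log2 fold change was 1.39 ± 0.24 (SE), with a 95% interval from 0.81 to 1.97 and a limma adjusted p of 0.391. Gstp1 ranked 77 of all features by p and 62 by positive log2 fold change.

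Gstp1 had a pair of dimmer probes. Probe A_44_P182221 read 4.46, 5.28 and 4.73 in treated animals, against 3.47, 3.27 and 2.90 in vehicle animals. Probe A_64_P170600 read 4.88, 5.61 and 5.12 in treated animals, against 3.86, 3.70 and 3.28 in vehicle animals. Their log2 fold changes were 1.61 and 1.59, each a little above that of the brightest probe. On all 3 probes the order of the animals was the same, with treated replicate 2 highest and vehicle replicate 3 lowest. Over the arrays left out in turn, the log2 fold change of the brightest probe ranged from 1.15 (without treated replicate 2) to 1.54 (without treated replicate 1). A fit that took the slide as a block gave 1.15 with an adjusted p of 0.320, the same fit as the 5 arrays of the shared slide alone. Another pi class gene, Gstp3 (NM_001134508), stood at 0.15 ± 0.08 (SE), with an adjusted p of 0.668.

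**Figure D1:**
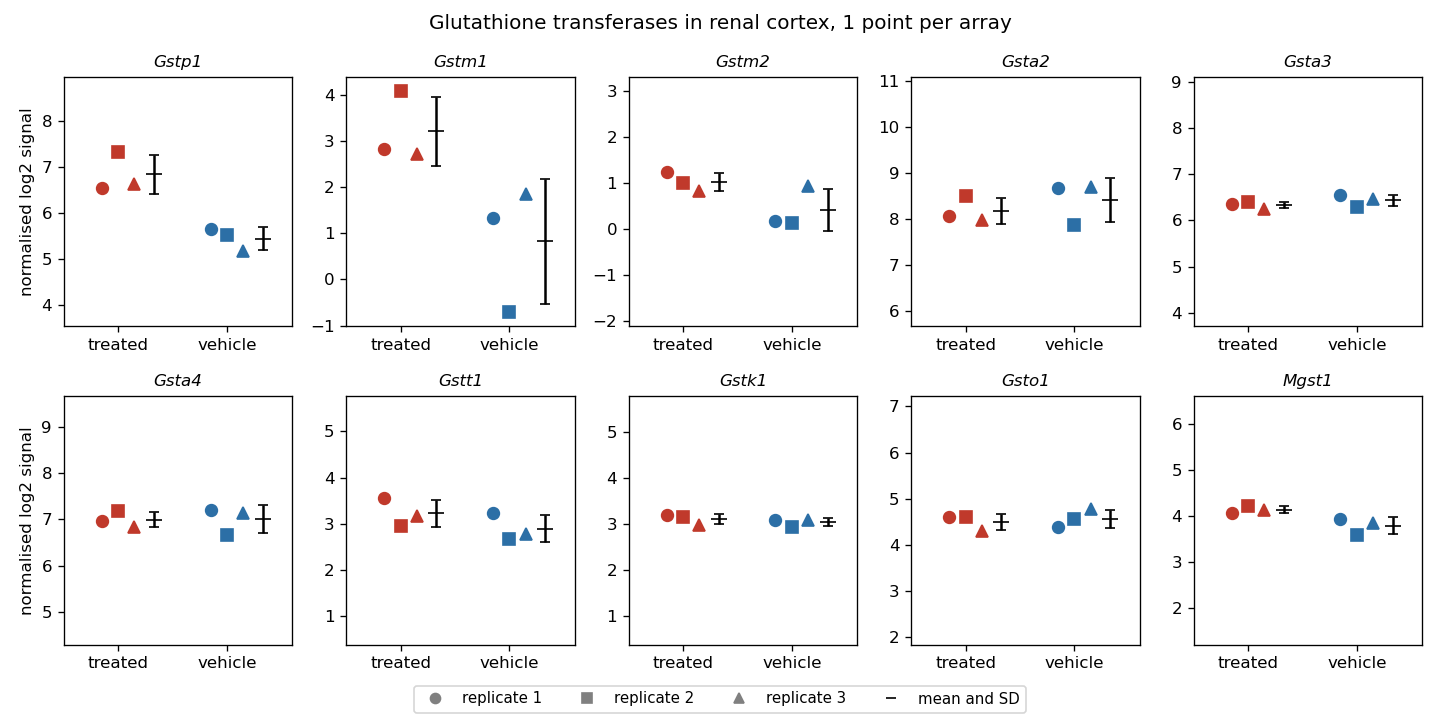
Normalised log2 signal of the 10 glutathione transferase genes, brightest probe each, with treated animals on the left of each panel and vehicle animals on the right; symbols mark the replicate, and the black bar gives the mean and SD of 3 animals. All panels span the same number of log2 units. Gstp1, Gstm1 and Mgst1 are the panels in which the groups do not overlap, and vehicle replicate 2 lies far below the others for Gstm1, at -0.70.

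Gstm1 (NM_017014), the main mu class subunit of rat liver, showed the largest difference in means of the 10 and also the widest spread. Its single probe read 2.82, 4.08 and 2.73 in treated animals, against 1.33, -0.70 and 1.86 in vehicle animals. The groups did not overlap, but the vehicle animals alone spanned more than 2 log2 units, with replicate 2 lowest. The means were 3.21 ± 0.76 in treated and 0.83 ± 1.35 in vehicle animals (SD, n = 3 each). On the log2 scale the treated mean was 2.38 ± 0.72 (SE) higher, or 5.22-fold, with a 95% interval from 0.62 to 4.15 and a limma adjusted p of 0.512. Only 0.791% of all features had a larger pooled spread within groups. Without vehicle replicate 2 the log2 fold change was 1.62, and without vehicle replicate 3 it was 2.90. With the slide as a block it was 1.95 with an adjusted p of 0.677.

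Gstm2 (NM_177426), another mu class subunit, read 1.23, 1.01 and 0.83 in treated animals, against 0.17, 0.14 and 0.94 in vehicle animals. Vehicle replicate 3 overlapped the treated animals, while vehicle replicates 1 and 2 lay below all of them. In log2 fold change, Gstm2 stood at 0.61 ± 0.24 (SE), or 1.52-fold, with an adjusted p of 0.590. It ranged from 0.47 without vehicle replicate 2 to 0.87 without vehicle replicate 3.

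Mgst1 (NM_134349), the microsomal enzyme, which also reduces lipid peroxides, differed by less, and 51.8% of all features had a larger pooled spread within groups than Mgst1. It read 4.06, 4.22 and 4.13 in treated animals, against 3.93, 3.59 and 3.85 in vehicle animals. The groups did not overlap, with a gap between treated replicate 1 at 4.06 and vehicle replicate 1 at 3.93. The means were 4.14 ± 0.08 in treated and 3.79 ± 0.18 in vehicle animals (SD, n = 3 each), and the log2 fold change was 0.35 ± 0.11 (SE), or 1.27-fold, with an adjusted p of 0.521. It was 0.25 without vehicle replicate 2 and 0.42 without vehicle replicate 1.

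By their brightest probes, none of the 3 alpha class genes had an unadjusted p under 0.05 with all arrays. Gsta2 (NM_017013), the subunit long called Ya, read 8.06, 8.50 and 7.98 in treated animals, against 8.68, 7.88 and 8.70 in vehicle animals. Vehicle replicate 2 lay below every treated animal and the other vehicle animals above every treated animal, so the groups overlapped because of 1 animal. The log2 fold change was -0.23 ± 0.26 (SE), with a 95% interval from -0.87 to 0.40 and an adjusted p of 0.836, and its other probe (A_44_P109608) gave -0.23. Without vehicle replicate 2 the log2 fold change of the brightest Gsta2 probe was -0.50, at an adjusted p of 0.554. In that fit, which drops the animal that caused the overlap, Gsta2 was lower at an unadjusted p under 0.05, as 1 of the 10. Of all 30709 features, 2733 had such a p in that fit, in either direction. With all arrays the unadjusted limma p of Gsta2 was 0.405, and 1 of the 6 fits with an array left out brought it under 0.05.

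Gsta4 (NM_001106840), whose enzyme is known for conjugating the lipid peroxidation product 4-hydroxynonenal, read 6.98, 7.18 and 6.84 in treated animals, against 7.21, 6.66 and 7.15 in vehicle animals. The groups overlapped, again with vehicle replicate 2 lowest. Its log2 fold change was -0.01 ± 0.17 (SE), with a 95% interval from -0.43 to 0.41, and the other probe gave 0.06.

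Gsta3 was measured by 3 probes that disagreed. The symbol here is RefSeq's current one for the transcript also called Yc2, and the subunit long listed as Gsta3, Yc1, is now Gsta1. The brightest probe (A_64_P004231, NM_001159739) read 6.35, 6.39 and 6.26 in treated animals, against 6.55, 6.30 and 6.46 in vehicle animals. Its log2 fold change was -0.10 ± 0.09 (SE), with a 95% interval from -0.33 to 0.12 and an adjusted p of 0.787, and probe A_44_P491831 (NM_001009920) gave -0.05. The third probe of Gsta3 (A_64_P035291, also designed on NM_001159739) read 2.05, 2.11 and 1.98 in treated animals, against 1.74, 0.76 and 1.18 in vehicle animals. On that probe the groups did not overlap, the treated animals lay close together, and the log2 fold change was 0.82 ± 0.24 (SE), with an unadjusted p of 0.0134 and an adjusted p of 0.489 in limma's fit of every kept probe. It ranged from 0.59 without vehicle replicate 2 to 1.08 without vehicle replicate 1. RefSeq lists 2 starts for the gene, and which transcript each probe reads was not tested.

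**Figure D2:**
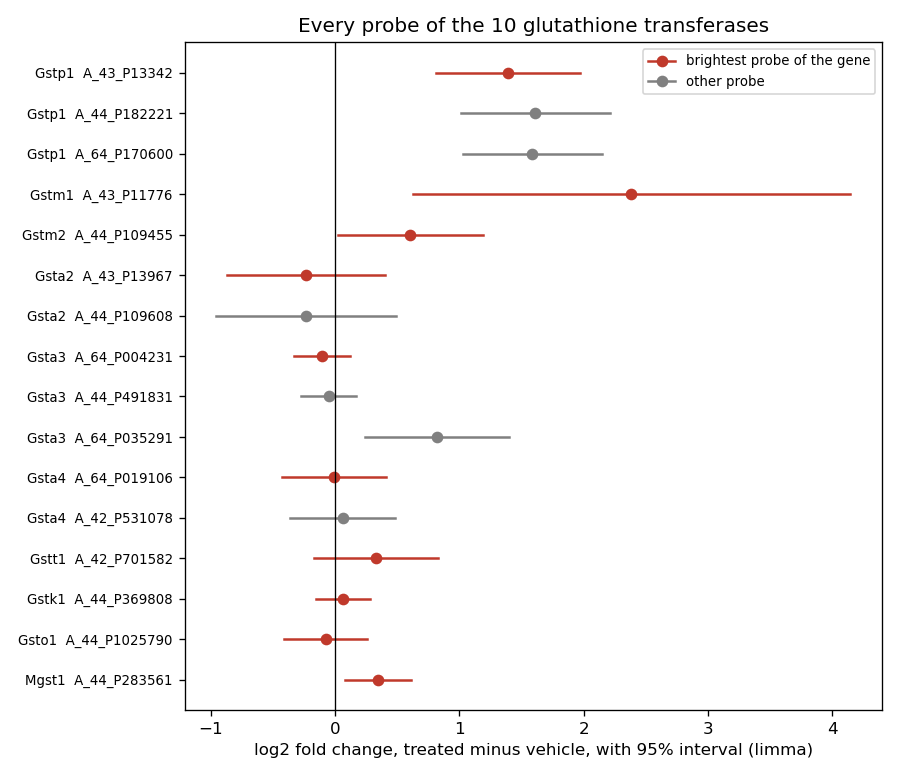
Log2 fold change, treated minus vehicle, of all 16 probes of the 10 genes with limma's 95% interval, from a fit with every probe as a feature; red marks the brightest probe of a gene and grey its other probes. The 3 Gstp1 probes lie together between 1.39 and 1.61, whereas the dimmest of the 3 Gsta3 probes lies at 0.82 and the other Gsta3 probes near 0.

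Gstt1 (NM_053293), which acts on small halogenated compounds, read 3.55, 2.96 and 3.17 in treated animals, against 3.22, 2.67 and 2.79 in vehicle animals. Vehicle replicate 1 overlapped the treated animals. For Gstt1 the log2 fold change was 0.33 ± 0.20 (SE), with a 95% interval from -0.17 to 0.83 and an adjusted p of 0.702, and it was 0.17 without treated replicate 1 and 0.50 without vehicle replicate 1.

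Gstk1 (NM_181371), the form of mitochondria and peroxisomes, was the steadiest of the 10. It read 3.19, 3.16 and 2.99 in treated animals, against 3.10, 2.95 and 3.09 in vehicle animals, with overlapping groups. For Gstk1 the log2 fold change was 0.07 ± 0.09 (SE), with a 95% interval from -0.15 to 0.29. It was -0.0083 after normexp background correction.

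Gsto1 (NM_001007602), which reduces rather than conjugates many of its substrates, read 4.59, 4.59 and 4.29 in treated animals, against 4.37, 4.56 and 4.77 in vehicle animals. The groups overlapped. For Gsto1 the log2 fold change was -0.07 ± 0.14 (SE), with a 95% interval from -0.41 to 0.26. It turned positive, up to 0.026, without treated replicate 3 or vehicle replicate 3.

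Vehicle replicate 2 had the lowest value among the vehicle animals for 8 of the 10 genes (all but Gstp1 and Gsto1), against 34.3% of all features. Among the treated animals, replicate 2 was highest for 6 of the 10 and replicate 3 lowest for 7, against 33.0% and 36.3% of all features. Markers of the straight proximal tubule (Slc22a7, Slc7a13, Slc5a10, Slc22a13, Acsm3 and Cyp7b1) were likewise lowest, by their mean and their sum, in vehicle replicate 2. All 6 were measured, none had an unadjusted p under 0.05, and their mean relative to the vehicle mean was 0.80, 0.45 and 0.35 in treated animals, against 0.33, -0.37 and 0.04 in vehicle animals. Their summed level ranged from 77.2 to 153 times the 75th percentile in treated and from 40.2 to 99.6 times in vehicle animals. These sums overlapped, but the straight tubule mean stood apart by treatment, narrowly, with 0.35 in treated replicate 3 and 0.33 in vehicle replicate 1. Their median log2 fold change was 0.32, and 1 of the 6 genes had groups that did not overlap, against 14.6% of all features. Red cell markers also stood apart by their mean, at 0.25, 0.36 and 0.59 in treated animals, against -0.15, 0.06 and 0.09 in vehicle animals. Of 6 listed, 4 were tested and 2 (Alas2 and Hbb-b1) were higher at an unadjusted p under 0.05, against 3.52% of all features. By gene, 1 of the 4 had groups that did not overlap. The summed level of the red cell markers overlapped, at 438 to 539 times the 75th percentile in treated and 341 to 461 times in vehicle animals. Of 5 fibroblast markers, all tested, 2 (Col1a1 and Pdgfrb) were higher at that p, against the same 3.52%. Their sums of 16.9 to 23.8 in treated and 15.2 to 19.5 in vehicle animals also overlapped. The part of any of these marker lists in the differences of the glutathione transferases was not tested. In bulk tissue, fewer cells of a type and less RNA per cell cannot be told apart.

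**Figure D3:**
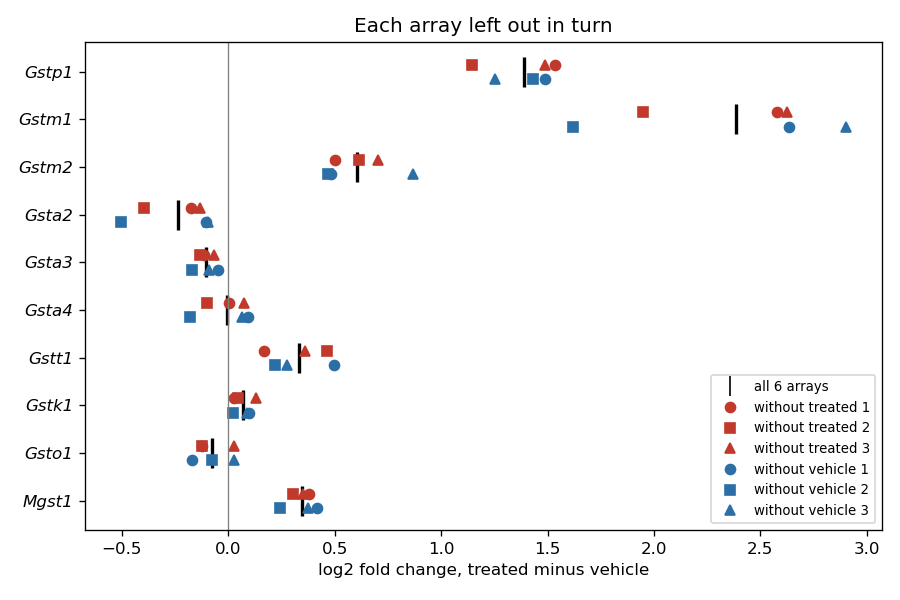
Log2 fold change, treated minus vehicle, of each gene with all 6 arrays (black bar) and with each array left out (red symbols, a treated array left out; blue symbols, a vehicle array left out; the shape gives the replicate). Gstp1 stays between 1.15 and 1.54, Gstm1 spans 1.62 to 2.90, and Gsta4 and Gsto1 fall on both sides of 0.

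Each array was left out of the counts in turn, an alternative added after seeing the data. Gstp1 had an unadjusted p under 0.05 in 6 of the 6 fits, Gstm1 and Mgst1 in 5, Gstm2 in 2, Gstt1 in 1 (higher, without vehicle replicate 1) and Gsta2 in 1 (lower, without vehicle replicate 2). Gstm2 passed that level without vehicle replicate 3 and without treated replicate 3. Without vehicle replicate 2, 3 of the 10 were higher at that level (Gstp1, Gstm1 and Mgst1), against 3.80% of features, and Gsta2 was lower. In that fit 2733 of all 30709 features passed that level in either direction. Without treated replicate 2 only Gstp1 was left, against 2.99% of features. Groups that stand apart cannot come to overlap when an array is left out. That Gstp1, Gstm1 and Mgst1 stood apart in both of these fits was therefore fixed in advance. Of all features, 12.4% stood apart with higher treated values without vehicle replicate 2, and 11.4% without treated replicate 2.

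The wider family was listed from the same annotation. With the 10 genes, 24 soluble and microsomal transferase genes had a kept probe. Of the others, Gstp3, Gstm4, Gstm5, Gstm6l, Gstm7, Gsta1, Gsta5, Mgst2 and Mgst3 were picked for mention after their values were seen. In the mu class, 6 of 7 tested genes had a log2 fold change above 0, with a median of 0.61, and 3 of the 7 were higher at an unadjusted p under 0.05, against 3.52% of all features. Of these 3, Gstm1 and Gstm2 had already been counted among the 10 genes, which were chosen with earlier results known. Gstm6l, at 0.11 ± 0.24 (SE), was among the 6, but was at -0.0057 after normexp background correction and at -0.075 without vehicle replicate 2. Gstm3 (NM_020540), the third of these, read -4.02, -4.76 and -4.46 in treated animals, against -5.60, -5.53 and -4.99 in vehicle animals. Its log2 fold change was 0.96 ± 0.24 (SE), with an adjusted p of 0.478, and its other probe gave 1.17. Both Gstm3 probes were dim, and after normexp background correction they stood at 0.27 and 0.40.

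Gstm7 and Gstm4 had log2 fold changes of 0.82 ± 0.48 and 0.51 ± 0.35 (SE), or 0.34 and 0.18 without vehicle replicate 2. Gstm7 read -1.24 in that animal, against -0.33 and 0.76 in the other vehicle animals and 0.63, 0.72 and 0.31 in treated animals. Gstm5 was the mu class gene below 0, at -0.28 ± 0.29, but without vehicle replicate 3 it was at 0.015 and without vehicle replicate 2 at -0.58. Closely related transferases can share a probe's signal, and how far the mu and alpha probes do so was not tested.

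In the alpha class, 0 of 6 tested genes had a log2 fold change above 0 and the median was -0.12, but Gsta4 turned positive after normexp background correction (0.053), and Gsta4 and Gsta3 with the mean of their probes (0.027 and 0.22). Gsta6 (NM_001024361) had an unadjusted p under 0.05 and was lower, at -0.33 ± 0.10 (SE), with an adjusted p of 0.513. Gsta1 and Gsta5, near relatives of Gsta3 and Gsta2, were at -0.06 ± 0.09 and -0.13 ± 0.23. The difference between the mu and alpha classes was not tested.

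Among the remaining classes, theta held 2 tested genes, with the log2 fold change of Gstt1 above 0 and that of the other gene below 0. The membrane-bound Mgst2 and Mgst3 stood at 0.32 ± 0.38 and 0.03 ± 0.09 (SE). Mgst2 was at -0.077 without treated replicate 3 and at 0.61 without treated replicate 2, and the other Mgst3 probes gave -0.079 and -0.021. Gsto2 was at 0.33 ± 0.14 and, after normexp background correction, at 0.15. Ptges, a prostaglandin synthase of the same membrane family as Mgst1, was at -0.19 ± 0.09. Of 17 tested relatives of the 10 genes on a list of transferases and related membrane proteins, 1 was higher and 1 lower at an unadjusted p under 0.05, where 3.52% of all features were higher and 4.8% lower, and 0 passed adjustment. Hpgds, Gstt4 and Gstm6 did not rise well above background on any array, so they were not tested.

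**Figure D4:**
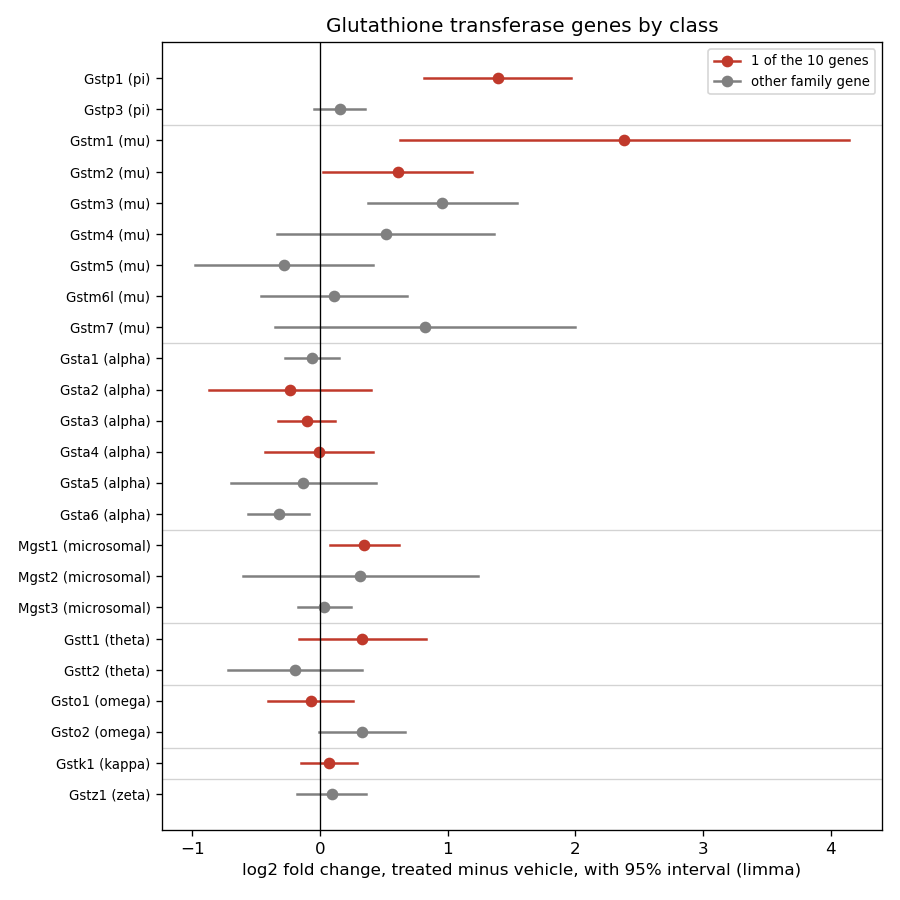
Log2 fold change, treated minus vehicle, with limma's 95% interval for the 24 tested transferase genes grouped by class; red marks the 10 genes and grey the other family genes. Mu class genes lie mostly right of 0, up to 2.38 for Gstm1, though Gstm6l turns negative after normexp background correction. By their brightest probes all 6 alpha class genes lie left of 0, Gsta4 only just. The sign of Gsta4 turns after normexp background correction, and the signs of Gsta4 and Gsta3 turn when their probes are averaged (0.027 and 0.22).

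Genes on either side of the conjugation step were counted from lists of their own. For glutathione supply and reduction, 14 of 15 listed genes were tested, with 1 higher and 1 lower at an unadjusted p under 0.05 (3.52% and 4.8% over all features) and a median log2 fold change of 0.06. Gclm and Gclc encode the regulatory and catalytic parts of glutamate-cysteine ligase, which makes the precursor of glutathione, and stood at 0.91 ± 0.32 and 0.70 ± 0.42 (SE). The Gclm value was 0.63 after normexp background correction and 0.66 without vehicle replicate 2. Gclc read 7.34, 7.36 and 6.56 in treated animals, against 7.21, 5.69 and 6.26 in vehicle animals, so vehicle replicate 2 was again the lowest, and without it Gclc was at 0.35. Gpx3, the plasma glutathione peroxidase made by the proximal tubule, was lower in treated animals at -0.33 ± 0.07, with values of 7.85, 7.77 and 7.83 in treated and 8.15, 8.07 and 8.21 in vehicle animals that did not overlap, and an adjusted p of 0.472. Gsr, glutathione reductase, was at 0.07 ± 0.09, and Glrx at -0.13 ± 0.09.

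For the breakdown of conjugates to mercapturic acids, all 17 listed genes were tested, with 2 higher and 1 lower at an unadjusted p under 0.05 (3.52% and 4.8% over all features) and a median of 0.02. Nat8, which acetylates cysteine conjugates in the last step, was at 0.41 ± 0.10 (SE) and read 6.70, 6.70 and 6.65 in treated animals, against 6.46, 6.18 and 6.19 in vehicle animals, without overlap. Dpep1, a brush border dipeptidase, was at 0.72 ± 0.25, and at 0.46 without treated replicate 3. Ggt1, which removes the glutamyl group from conjugates at the brush border, was at 0.34 ± 0.24, and at 0.12 without vehicle replicate 2. Ggt6 was lower at -0.92 ± 0.15, but its probe was well above background on 1 treated and 3 vehicle arrays, and it stood at -0.29 after normexp background correction. Ggct was at -0.20 ± 0.13.

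Of 9 listed export genes 8 were tested, 3 were higher at an unadjusted p under 0.05 and 0 lower, against 3.52% and 4.8% of all features. All 8 had a log2 fold change above 0, against 48.6% of all features, with a median of 0.19. For 4 of them every treated value lay above every vehicle value, against 6.51% of all features. Abcc2, the apical pump for glutathione conjugates, read 2.26, 2.47 and 2.75 in treated animals, against 1.49, 2.02 and 1.73 in vehicle animals. Its log2 fold change was 0.75 ± 0.18 (SE), and that of Abcc4 was 0.50 ± 0.13. None of these genes passed adjustment over all features.

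Of the other Nrf2 factors and targets, 29 of 31 were tested, 8 were higher and 2 lower at an unadjusted p under 0.05, against 3.52% and 4.8% of all features. The median log2 fold change was 0.15, against -0.01 over all features. Akr7a3 and Nqo1, reductases of aldehydes and quinones, were at 0.80 ± 0.12 and 1.28 ± 0.28 (SE). After normexp background correction Akr7a3 was at 0.83 and Nqo1 at 0.97. The lower ones were Akr1b8, an aldo-keto reductase, at -1.89 ± 0.17, and Mafk, a partner of Nrf2, at -0.23 ± 0.07. Hmox1, haem oxygenase, read -1.42, -1.49 and 5.10 in treated animals, against -1.42, -1.56 and -1.47 in vehicle animals, so its log2 fold change of 2.22 ± 1.77, or 0.03 without treated replicate 3, rested on that animal, in which neither Gstp1 nor Gstm1 was highest.

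Likeness to Gstp1 was measured as the root-mean-square difference over the 6 arrays after subtracting each gene's vehicle mean. The 5 closest named genes outside the 10 were Sbp at 0.349, Nqo1 at 0.368, Zg16b at 0.375, Guca2b at 0.380 and Rwdd2a at 0.387 log2 units. Relative to the vehicle mean, Nqo1 stood at 0.71, 1.48 and 1.67 in treated animals, against 0.29, -0.33 and 0.04 in vehicle animals. Guca2b, which encodes uroguanylin, stood at 1.73, 2.20 and 1.64 in treated animals, against -0.08, 0.05 and 0.04 in vehicle animals. Guca2b shared with Gstp1 the highest value in treated replicate 2, whereas Nqo1, Sbp and Zg16b were highest in treated replicate 3. Rwdd2a was dim, and its log2 fold change went from 1.08 to 0.23 after normexp background correction. That correction took Nqo1, Sbp and Zg16b from 1.28, 1.11 and 1.04 to 0.97, 0.80 and 0.85, and Guca2b from 1.85 to 1.77.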

How the data were processed

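Total RNA of renal cortex was measured on single-colour Agilent arrays, 1 per animal. The submitters' processing notes name Agilent Feature Extraction 10.7. Per the file headers, the deposited scanner files give linear intensity: a signal that was background-subtracted and detrended but not normalised between arrays, and the medians of spot and local background. The array design names build rn4, so no gene coordinates are given. The value table that the authors deposited gives a ratio, which by comparison is the processed signal over the array's 75th percentile, linear and without centring of genes. Medians of its columns were 0.106, 0.104 and 0.103 for treated and 0.104, 0.106 and 0.103 for vehicle samples. Its columns for replicates 1, 2 and 3 matched the scanner files of replicates 3, 1 and 2 in both groups. Which numbering holds is unknown, and replicates are named here by scanner file.

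Of 61657 non-control probes, 84 external controls and 47 outlier-flagged probes were dropped. Processed signals were log2-transformed after division by the array's 75th percentile. Probes flagged well above background by 3 or more of the 6 arrays were kept, and the brightest kept probe stood for its gene. That gave 30709 features, and 41551 probes in the fit with every probe. limma 3.58.1 in R 4.3.3 (lmFit, eBayes) compared the groups and was tested on simulated data. The typical (median) standard error over features was 0.113 log2 units, and the number of arrays limits the precision. Named genes were the 10 members with every probe, the 2 genes of lowest p per list and direction, 7 fixed genes and the 5 genes most like Gstp1. The 9 further family genes that the text marks were picked after their values were seen. The members and lists were chosen with earlier results of these data known. Alternatives were other background corrections, scalings, filters, probe rules, variance models and blocks, and each array left out.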

Additional observations from a re-analysis of the deposited data

How the results depend on the processing

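None of the 10 genes passed the adjusted threshold under any alternative, and the smallest adjusted p of Gstp1 was 0.248, after normexp. Gstp1, Gstm1, Gstm2, Gstt1 and Mgst1 were above 0 and Gsta2 below 0 in each alternative run. The slide block, the shared slide alone and the fit without treated replicate 2 are 1 fit under 3 names. limma called 5 features after normexp background correction, 5 with a trended, robust variance, 1 with the filter of all 6 arrays, 2 with probes averaged per gene, and 3 each with the slide as a block and with the shared slide alone. Leaving out 1 array gave 0 to 3 called features and a median over the 10 genes of 0.10 to 0.26. Gsta4 turned positive after normexp (0.053) and with averaged probes (0.027), and ranged from -0.18 to 0.094 over the arrays left out. Gsto1 ranged from -0.17 to 0.026 over the arrays left out, Gstk1 was at -0.0083 after normexp, and Gsta3 at 0.22 with averaged probes. The cause was not tested. Medians of spot and background served for normexp, in place of means. With the replicate number as a block, limma called 0 features and 0 of the 10 genes, the median stayed at 0.20, and 3 of the 10 were higher at an unadjusted p under 0.05, against 3.38% of features: Gstp1 and Gstm1 as before and Gstt1, but not Gstm2 or Mgst1. Deviations of same-numbered samples correlated at 0.023, -0.044 and -0.021 across features, so the values showed no sign of pairing by number. Such correlations cannot show whether the animals were paired by design. The value table's numbering puts the same arrays together, so a block on it, chosen after seeing the data, is the same fit.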
